A study of Homo sapiens with 6 samples.

Results

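The MYC, MAX and MXD network comprised 10 genes here, MYC, MAX, MXD1, MXD3, MXD4, MXI1, MNT, MLX, MLXIP and MGA, found by their symbols among the 11911 genes of the deposited table. All 10 had a row and passed the filter on low values. The RNA came from RS4;11, an established human cell line of B-lineage acute lymphoblastic leukemia with a KMT2A fusion. There were 3 libraries from cells with asparagine (Asn), titled RS4;11+Asn, and 3 from cells without it, titled RS4;11-Asn and called depleted here, with RNA taken 16 hours after the amino acid was withdrawn. The depleted columns of the deposited table have a name that may abbreviate asparaginase, so how asparagine was removed is not settled. Asparagine-free medium with dialyzed serum is entered for every sample, so the serum given to the cells with asparagine is not settled. The labels do not tie libraries to separate cultures, so the p-values measure only how far these libraries vary, and that variation may be technical.

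The proteins of the network bind DNA as pairs through a basic helix-loop-helix leucine zipper. MYC pairs with MAX on the E-box CACGTG and raises transcription of genes for ribosomes, nucleotides and cell growth. The MXD proteins (MXI1 is also called MXD2), MNT and MGA compete for MAX and bring corepressors to the same sites. MLX pairs with MLXIP, known as MondoA, a glucose-responsive activator, and also with some MXD proteins and MNT. In lymphoid leukemia MYC is a well-known driver of proliferation.

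After depletion MYC RNA was 2.16-fold lower and that of the repressor MNT 1.92-fold lower. RNA of the repressors MXD1 and MGA was 2.71-fold and 1.91-fold higher, and that of MLXIP was 1.42-fold lower. The means of the common partner MAX differed 1.18-fold, which did not pass the test. With limma, 2 members were higher and 3 lower at a Benjamini-Hochberg adjusted p under 0.05. Among all 11892 genes tested, 25.1% were called higher, 26.2% lower and 51.3% either way, so 5 of 10 is close to the background. On the log2(CPM + 1) scale, CPM being reads scaled to a common library size, the median fold change of the members was -0.18, beside 0.01 over all genes tested. The sign of that median was not stable. By library it was 0.18, -0.34 and -0.33 in depleted libraries 1, 2 and 3. After a correction for the GC content of transcripts, described below, it was 0.13. Groups did not overlap for 7 members, MAX, MXD1, MXI1 and MGA higher and MYC, MNT and MLXIP lower. Over all genes 61.1% did not overlap, 30.2% higher and 30.8% lower. Each level depends on how the libraries were scaled, and in bulk RNA fewer cells of a kind and less RNA per cell cannot be told apart.

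Promoters of the members are shown because MYC and MAX bind the E-box CACGTG. RefSeq promoter windows of GRCh38.p14, from 250 bases before to 50 after a start, were searched for 9 of the 10 members, MYC left out, in 14 windows. CACGTG, which reads the same on both strands, was in 3 of them, those of MXD4, MNT and MLX. Among the 13073 windows of genes in the table, 9.55% held it. The related word CACGCG, searched on both strands, was in 1 window each of MXD3, MXI1 and MGA, and in 17.5% of the windows of genes in the table. The 250 bases before the start are printed for MNT, MXD4, MLX and MXD1, 5′ to 3′ on the gene's strand, with CACGTG in capitals. They lie at chr17:2401061-2401310 (minus strand), chr4:2262110-2262359 (minus strand), chr17:42566850-42567099 (plus strand) and chr2:69914859-69915108 (plus strand).
MNT: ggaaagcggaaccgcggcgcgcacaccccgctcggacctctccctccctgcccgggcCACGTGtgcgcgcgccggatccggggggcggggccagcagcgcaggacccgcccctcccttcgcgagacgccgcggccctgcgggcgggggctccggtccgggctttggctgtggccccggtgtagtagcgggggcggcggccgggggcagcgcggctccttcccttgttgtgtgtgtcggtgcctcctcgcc
MXD4: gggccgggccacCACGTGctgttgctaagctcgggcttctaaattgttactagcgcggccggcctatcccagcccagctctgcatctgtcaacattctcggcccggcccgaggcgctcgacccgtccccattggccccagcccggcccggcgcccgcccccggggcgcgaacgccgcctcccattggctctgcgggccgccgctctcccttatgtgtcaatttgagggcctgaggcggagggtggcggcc
MLX: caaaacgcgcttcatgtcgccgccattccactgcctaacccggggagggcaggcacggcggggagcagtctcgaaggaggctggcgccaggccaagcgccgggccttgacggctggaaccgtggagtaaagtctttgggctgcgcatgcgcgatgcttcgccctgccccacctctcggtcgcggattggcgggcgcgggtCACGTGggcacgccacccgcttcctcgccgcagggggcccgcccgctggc
MXD1: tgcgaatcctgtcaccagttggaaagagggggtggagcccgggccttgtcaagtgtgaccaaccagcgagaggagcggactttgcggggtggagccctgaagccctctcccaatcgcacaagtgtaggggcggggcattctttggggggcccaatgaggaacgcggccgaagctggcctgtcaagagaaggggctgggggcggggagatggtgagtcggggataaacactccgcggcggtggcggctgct
The E-box begins at -193 in MNT, -238 in MXD4 and -50 in MLX, counted from the start. The 3 genes with the word were not called alike: MNT fell, and MXD4 and MLX did not pass. The MXD1 window had neither word. A match describes the letters and does not show binding.

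The libraries differed in ways that touch these values. The table corresponded to an inferred 29971364 to 51127073 reads per library. Across genes, Pearson's r of depleted library 1 was 0.940 with depleted library 2 and 0.933 with depleted library 3, against 0.996 between those 2. Genes were split into 5 classes by the GC content of their transcripts. In the class of highest GC content the median gene had a log2 change, from the mean with asparagine, of -0.09, -0.86 and -0.89 in depleted libraries 1, 2 and 3. In the class of lowest GC content it was 0.03, 0.81 and 0.86, and in the class just above the lowest 0.06, 0.43 and 0.44. Values without depleted library 1 and after a GC correction are therefore given beside the change of each member and the counts and median of each list. All 11 B-precursor markers, among them CD79A, PAX5 and VPREB1, had rows, with summed levels of 4279 to 4554 CPM with asparagine and 3312 to 4221 in depleted libraries. They moved in different directions: VPREB1 went from 420.1 to 455 CPM with asparagine to 94.1 to 170 CPM in depleted libraries, and IGLL1 from 780 to 920 to 171 to 418. PAX5 went from 998 to 1016 to 1257 to 1460 CPM. All 6 markers of KMT2A-fusion leukemia had rows, summing to 1359 to 1396 CPM with asparagine and 1340 to 1749 in depleted libraries. They too moved in different directions: CSPG4 went from 389 to 470 CPM to 44.7 to 87.9, and PROM1 from 399 to 438 to 598 to 946. Of 6 T-lineage and 5 erythroid markers 0 had a row. Of 6 myeloid markers only CSF1R did (30.4 to 31.4 CPM with asparagine and 16.0 to 28.9 in depleted libraries). Of 5 stromal markers COL1A1 and PDGFRB did, summing to 65.7 to 76.3 and 36.0 to 48.4 CPM. The part of these markers in the members' values was not tested.

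**Figure D1:**
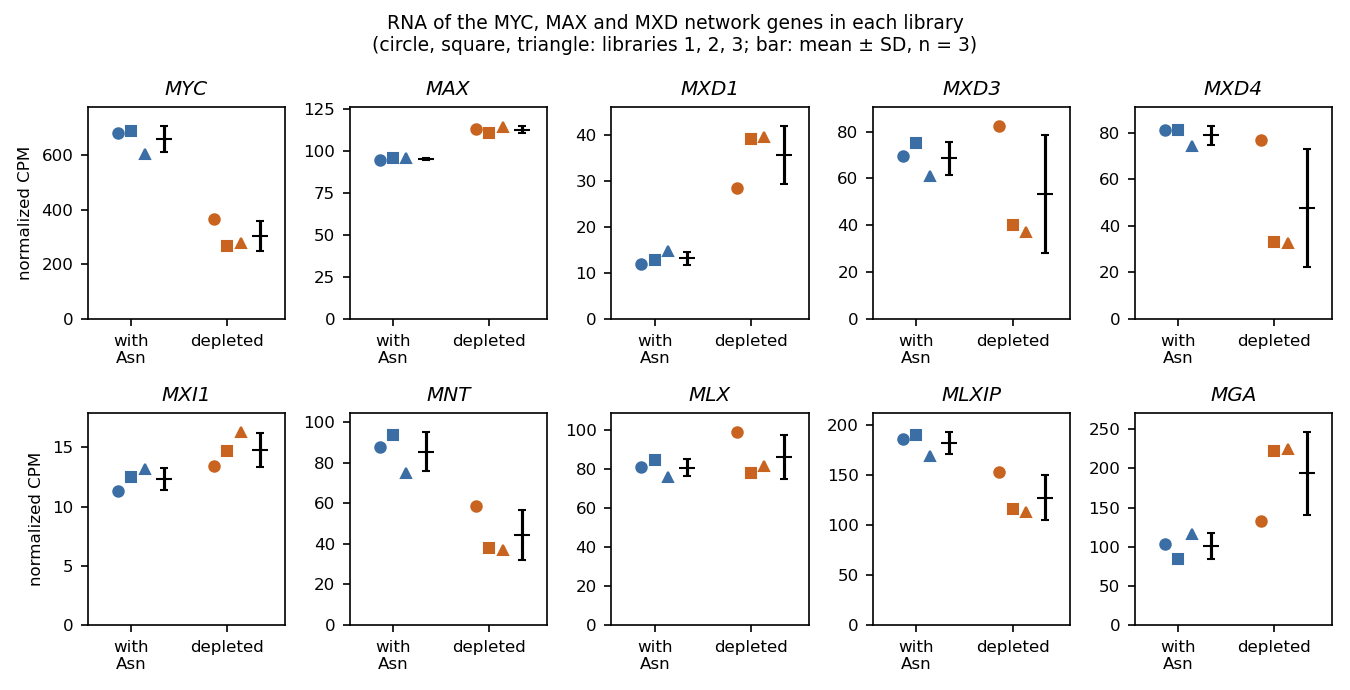
Normalized CPM (y axis, from 0) of each network gene in the 3 libraries with asparagine (blue) and the 3 depleted libraries (orange); bars are mean ± SD. MYC and MNT lie lower and MXD1 and MGA higher in every depleted library, while MXD3 and MXD4 are low only in depleted libraries 2 and 3.

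MYC, the activator of the network, lies on chromosome 8 from 127735434 to 127741434 (GRCh38, GENCODE 29). Its normalized CPM values were 682, 691 and 604 in libraries 1, 2 and 3 with asparagine. They were 368, 269 and 279.6 in depleted libraries 1, 2 and 3. Each depleted library lay below each library with asparagine, and the values rested on an inferred 8761 to 30306 reads. On the log2(CPM + 1) scale MYC fell by 1.12 (SE 0.15, limma adjusted p = 0.00166). The log2 fold change was -1.26 without depleted library 1 and -0.66 after the GC correction (adjusted p = 1.48e-07 and 0.00012). By library, the corrected change was -0.78, -0.64 and -0.55 in depleted libraries 1, 2 and 3. The GC content of MYC transcripts was 58.7%, in a class whose median change was -0.02, -0.48 and -0.51 in those libraries, while MYC changed by -0.83, -1.29 and -1.23.

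MAX, the common partner of MYC, MXD proteins, MNT and MGA, lies on chromosome 14 from 65006174 to 65102695. Its level was 94.995, 95.7 and 96.02 CPM with asparagine and 113, 111 and 115 CPM in depleted libraries. The groups did not overlap and both were tight, but the difference was small. Its log2 fold change was 0.24 (95% interval -0.0076 to 0.486), which did not pass (limma adjusted p = 0.0926). It passed without depleted library 1 at 0.24 and after the GC correction at 0.31 (adjusted p = 0.00969 and 0.00243). The 3 depleted libraries lay 0.25, 0.21 and 0.26 above the other group's mean on this scale.

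The 4 MXD genes encode repressors that recruit SIN3 through a short amino-terminal domain, and they did not move together. MXD1 (chromosome 2, 69897688 to 69942945), known to appear as cells stop dividing and differentiate, had 11.9, 12.8 and 14.7 CPM with asparagine. It had 28.3, 38.9 and 39.4 CPM in depleted libraries, all above the range with asparagine. MXD1 rose by 1.36 on the log2 scale (SE 0.17, limma adjusted p = 0.00139), by 1.51 without depleted library 1 and by 0.96 after the GC correction (adjusted p = 6.17e-07 and 4.2e-05). The corrected changes of MXD1 in depleted libraries 1, 2 and 3 were 1.01, 0.95 and 0.92.

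MXI1 (chromosome 10, 110207605 to 110287365) was expressed at 11.3, 12.5 and 13.2 CPM with asparagine and at 13.4, 14.7 and 16.3 CPM in depleted libraries. The groups were adjacent without overlap. The log2 fold change of 0.25 (95% interval -0.081 to 0.571) did not pass (limma adjusted p = 0.171). It was 0.31 without depleted library 1, where it passed (adjusted p = 0.0241), and 0.12 after the GC correction, where it did not (adjusted p = 0.238).

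MXD3 and MXD4 split the depleted libraries. MXD3 (chromosome 5, 177301461 to 177312757), a member linked to S phase and proliferating progenitors, had 69.7, 75.0 and 61.0 CPM with asparagine. In depleted library 1 it stood at 82.3 CPM, above all of these, and in depleted libraries 2 and 3 at 40.3 and 37.3 CPM, below all of them. Its log2 fold change was -0.44 (95% interval -1.15 to 0.265) and did not pass (limma adjusted p = 0.243). Leaving out depleted library 1 gave -0.80 (adjusted p = 3.38e-05), while the GC correction gave 0.35 (adjusted p = 0.00142), so its direction depended on that step. After correction the 3 depleted libraries gave similar values, 0.40, 0.36 and 0.30. MXD3 transcripts have a GC content of 67.3%, the highest among the members.

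MXD4 (chromosome 4, 2247432 to 2262294) had 81.02, 81.2 and 74.3 CPM with asparagine. It stood at 76.8 CPM in depleted library 1, within that range, and at 33.05 and 32.7 CPM in depleted libraries 2 and 3. The log2 fold change of -0.84 (95% interval -1.61 to -0.0657) did not pass after adjustment over all genes (limma adjusted p = 0.0671). Leaving out depleted library 1 gave -1.24 (adjusted p = 3.47e-07), while the GC correction gave -0.17 (adjusted p = 0.176). Both steps together gave -0.28 (adjusted p = 0.00148). The GC content of MXD4 transcripts was 64.0%.

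Some members share exonic bases with other genes. In GENCODE 29 the exons of MXD3 share 1158 bases with PRELID1 on the opposite strand and 926 bases with RAB24 on the same strand. No strand setting is given in the sources used here. PRELID1 stood at 72.1, 23.1 and 22.7 CPM in depleted libraries 1, 2 and 3, against 92.3 to 113 CPM with asparagine. RAB24 stood at 42.3, 22.3 and 21.4 CPM against 16.0 to 23.2. The part of these neighbours in the MXD3 values was not tested. MLX likewise shares 770 exonic bases with PSMC3IP on the opposite strand, MNT 1065 with the antisense gene AC006435.1, which was not analysed here, and MXD1 237 with SNRNP27 on its own strand.

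MNT and MGA are the larger MAX-binding repressors. MNT (chromosome 17, 2384060 to 2401118), regarded as the most widely expressed antagonist of MYC, had 87.6, 93.6 and 74.9 CPM with asparagine. Its depleted values were 58.5, 37.9 and 36.7 CPM, each below that range. MNT fell by 0.95 on the log2 scale (SE 0.21, limma adjusted p = 0.00942). The change was -1.17 without depleted library 1 and -0.40 after the GC correction (adjusted p = 2.22e-06 and 0.00109), with -0.46, -0.36 and -0.37 in the corrected depleted libraries.

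MGA (chromosome 15, 41621224 to 41773081), a very large protein that carries a T-box beside its MAX-binding domain and scaffolds the PRC1.6 Polycomb complex, had 103, 84.01 and 117 CPM with asparagine. It had 133, 223 and 225 CPM in depleted libraries, with depleted library 1 closest to the range with asparagine. MGA rose by 0.90 on the log2 scale (SE 0.24, limma adjusted p = 0.0198). It rose by 1.15 without depleted library 1 and by 0.50 after the GC correction (adjusted p = 7.86e-06 and 0.00282). The call was lost when 1 library was left out in 4 of the 6 cases, with an adjusted p of 0.0716 without depleted library 2 and 0.0641 without depleted library 3. Without library 1 or 2 with asparagine it was 0.0638 and 0.0792.

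In the parallel branch, MLX (chromosome 17, 42567068 to 42573239) had 81.1, 84.7 and 75.9 CPM with asparagine and 98.8, 78.1 and 81.4 CPM in depleted libraries. These ranges overlapped. Its log2 fold change was 0.09 (95% interval -0.234 to 0.41, limma adjusted p = 0.602), which did not pass. Leaving out depleted library 1 gave -0.014, while the GC correction gave 0.15, and neither passed (adjusted p = 0.877 and 0.102). A fit with the GC slope of the libraries as a covariate gave 0.32, which passed (adjusted p = 0.0023). Its partner MLXIP (chromosome 12, 122078722 to 122147347) had 185, 190.03 and 169 CPM with asparagine and 153, 116 and 113 CPM in depleted libraries, each below that range. MLXIP fell by 0.52 on the log2 scale (SE 0.15, limma adjusted p = 0.0265). It fell by 0.66 without depleted library 1 (adjusted p = 1.72e-05). After the GC correction its log2 fold change was -0.13, which did not pass (adjusted p = 0.0656). The MLXIP call was also lost without depleted library 2 or 3 (adjusted p = 0.0983 and 0.091). It was lost as well without library 1, 2 or 3 with asparagine (0.0958, 0.105 and 0.0604) and with quantile normalization (0.0642).

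**Figure D2:**
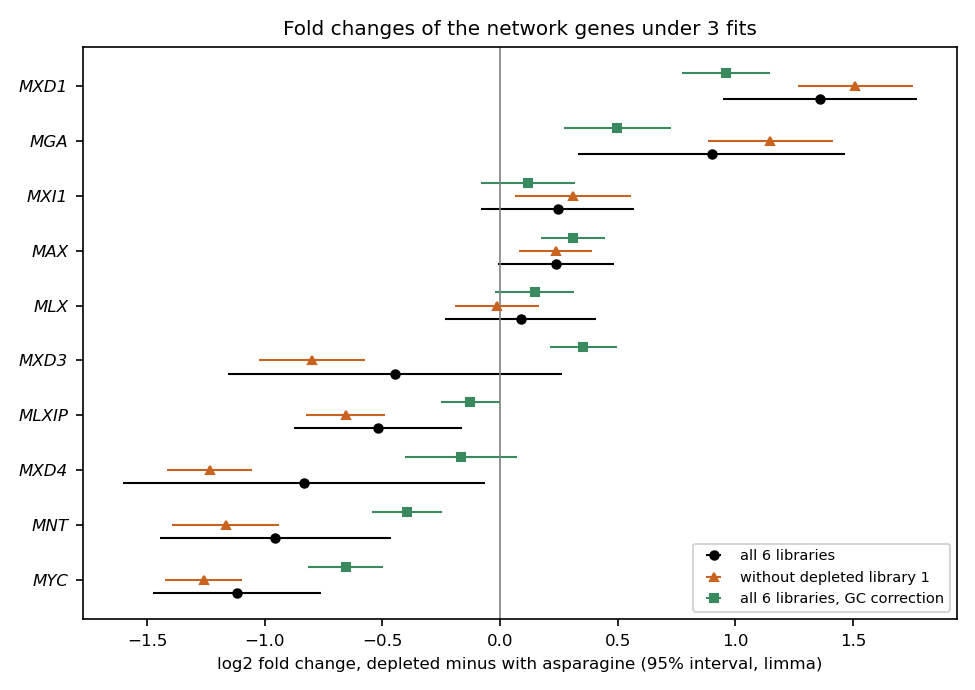
Log2 fold change of each network gene, depleted minus with asparagine, with its 95% interval (limma), for all 6 libraries (black), without depleted library 1 (orange) and with the GC correction (green). MYC and MNT stay below 0 and MXD1 and MGA above 0 in these 3 fits, and MXD3 lies at -0.44, -0.80 and 0.35.

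Across the 3 fits the count of members called changed. Without depleted library 1 there were 4 higher and 5 lower, beside 81.8% of all genes (40.5% up and 41.3% down). After the GC correction there were 4 higher (MAX, MXD1, MXD3 and MGA) and 2 lower (MYC and MNT), beside 69.5% of all genes called, 35.1% higher and 34.3% lower. Both steps together gave 4 higher and 3 lower, beside 78.2% called, 39.5% higher and 38.7% lower. MYC, MXD1 and MNT passed under all 21 alternative settings of the fit at the same threshold, MGA under 17 and MLXIP under 12. MAX passed under 6, MXD3 under 5, MXD4 under 3, and MXI1 and MLX under 1 each. The 5 passes of MXD3 were in opposite directions, lower in the uncorrected fit without depleted library 1 and higher in 4 fits that take GC content into account. Over these settings the adjusted p ranged from 1.48e-07 to 0.0139 for MYC, from 6.17e-07 to 0.0124 for MXD1 and from 2.22e-06 to 0.046 for MNT.

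**Figure D3:**
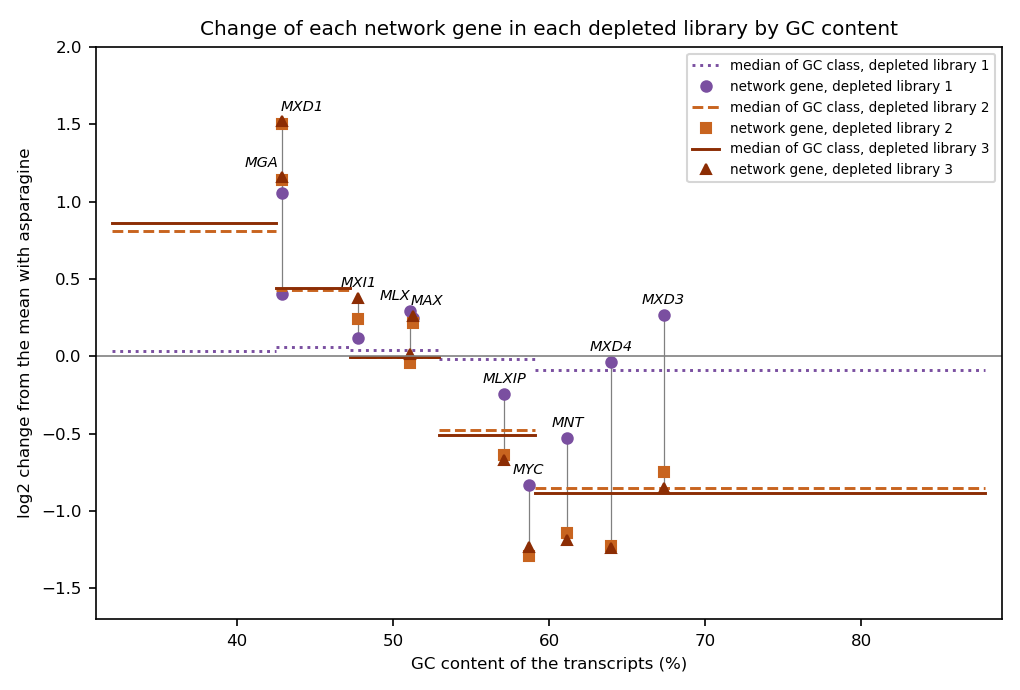
Change of each network gene on the log2 scale in depleted libraries 1 (circles), 2 (squares) and 3 (triangles) relative to the mean with asparagine, against the GC content of its transcripts; horizontal lines are the medians of all genes in 5 GC classes. Members of high GC content lie lower in depleted libraries 2 and 3 than in depleted library 1, and MXD1 and MGA, of low GC content, lie higher.

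Seen against genes of like GC content, members differed in how far they stood from their class. MXD1 and MGA, both at 42.9% GC, belong to a class with medians of 0.06, 0.43 and 0.44 in depleted libraries 1, 2 and 3. MXD1 lay at 1.06, 1.503 and 1.52 and MGA at 0.40, 1.14 and 1.16, above the class in each. MNT, MXD4 and MXD3 share the class of highest GC content, with medians of -0.09, -0.86 and -0.89. MNT lay below them in each library, at -0.53, -1.14 and -1.19. MXD4 lay at -0.04, -1.23 and -1.24, and MXD3 above the medians at 0.27, -0.75 and -0.85.

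The balance between MYC and its network was read within each library, where the scaling of libraries largely cancels but GC-related differences do not. The difference of MAX from MYC in log2(CPM + 1) was -2.77 ± 0.112 (SD, n = 3) with asparagine and -1.41 ± 0.24 in depleted cells. MXD1 moved from -5.55 ± 0.245 to -3.07 ± 0.507 relative to MYC, a shift of 2.48. MGA moved from -2.70 ± 0.333 to -0.68 ± 0.679, a shift of 2.02. The shifts of MXI1, MLX, MXD3 and MLXIP were 1.36, 1.21, 0.67 and 0.60, without overlap between the groups. Those of MXD4 and MNT were 0.28 and 0.16, and their groups overlapped. All of these differences share the values of MYC, so they are not independent of its fall. They were read without the GC correction, and their sizes and order depend on it. After it the log2 fold changes of MXD1, MGA and MXD3 were 0.96, 0.50 and 0.35, and that of MYC -0.66. By depleted library, corrected MNT changed by -0.46, -0.36 and -0.37 and MXD4 by 0.06, -0.29 and -0.27. Each value lay above that of MYC, at -0.78, -0.64 and -0.55. Relative to MAX, the level of MXI1 was -2.86 ± 0.0948 in libraries with asparagine and -2.86 ± 0.125 in depleted ones. MNT moved against MAX from -0.17 ± 0.168 to -1.36 ± 0.365.

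**Figure D4:**
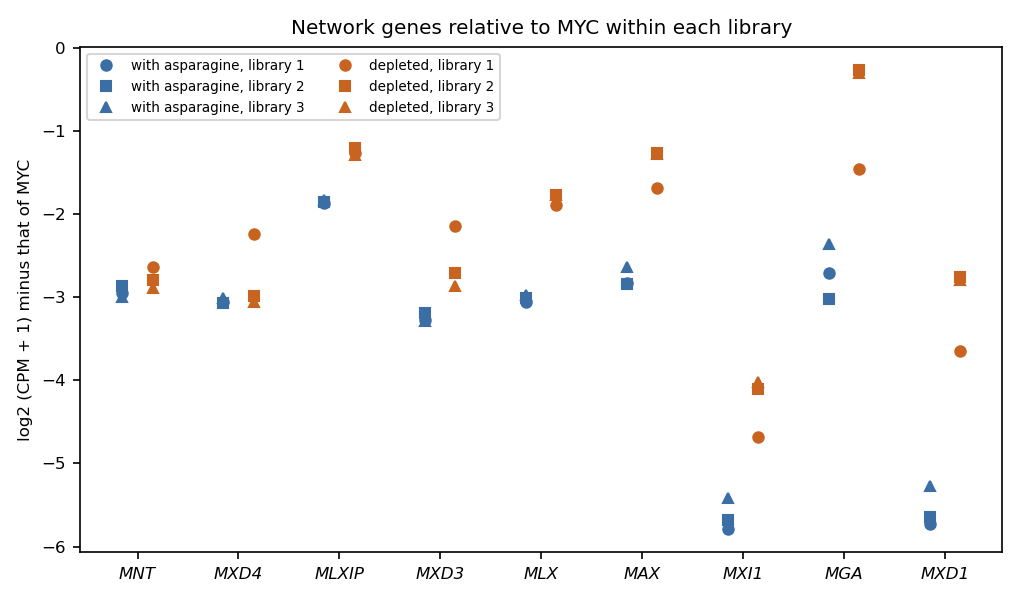
Log2(CPM + 1) of 9 network genes minus that of MYC in the same library, with asparagine (blue) and depleted (orange). In these values, which are not GC-corrected, the largest upward shifts are those of MXD1 (2.48) and MGA (2.02), and the groups overlap for MNT and MXD4.

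Levels of different genes were compared only per kilobase of median transcript length. With asparagine MYC led at 483 ± 35.1 CPM per kb (SD, n = 3), followed by MAX at 128 ± 0.71, MLXIP at 110 ± 6.69 and MXD3 at 58.5 ± 6.05. MLX (33.8 ± 1.85), MNT (30.5 ± 3.41) and MGA (28.7 ± 4.67 CPM per kb) came next, and their ranges over libraries overlapped. MXD4 followed at 19.4 ± 0.971, MXI1 at 13.9 ± 1.05 and MXD1 at 2.35 ± 0.257 CPM per kb. In depleted cells MYC, MAX and MLXIP kept the first places at 224 ± 40.1, 151 ± 2.59 and 77.2 ± 13.4 CPM per kb. By mean MGA came to place 4 at 54.7 ± 14.9, and MXD1 stayed last at 6.37 ± 1.12. Over depleted libraries MGA ranged from 37.6 to 63.7 and MXD3 from 31.9 to 70.2, so their order was not settled. In depleted library 1 MGA stood at 37.6, below MXD3 at 70.2 and MLX at 41.5. The scale depends on the length used: over the union of all exons MYC had 220 ± 16.0 and MAX 21.6 ± 0.12 CPM per kb with asparagine, still in places 1 and 2, with MXD1 last at 2.07 ± 0.225. Other places changed with that length, MLXIP moving from place 3 to 5 with asparagine. In depleted cells MXD1 was then in place 8 at 5.60 ± 0.983 and MXI1 last at 3.21 ± 0.312 CPM per kb. By mean MGA kept place 4 at 11.0 ± 2.98, close to MXD3 at 10.3 ± 4.88.

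Among genes that MYC is known to activate, 39 of the 44 tested of 46 listed were lower and 1 was higher, with a median log2 fold change of -1.17, beside 0.01 over all genes tested. The list was drawn up with earlier results of these data known, so this count is not independent evidence. Every list gene described below as having risen or fallen also passed in that direction without depleted library 1 and after the GC correction. For each list, the shares to read its counts against are 25.1% higher and 26.2% lower among all genes, 40.5% and 41.3% without depleted library 1, and 35.1% and 34.3% after the GC correction. TERT, the telomerase catalytic subunit, fell 7.74-fold from 88.7 ± 7.15 to 11.5 ± 3.20 CPM (mean ± SD, n = 3). NME1, a nucleoside diphosphate kinase, fell 6.86-fold, TFRC, the transferrin receptor, 5.97-fold and the glycolytic enzyme ENO1 5.23-fold from 2016 ± 82.7 to 385 ± 77.2 CPM. SHMT2, the mitochondrial serine hydroxymethyltransferase, was the exception and rose 2.26-fold from 417 ± 21.6 to 945 ± 245 CPM. EIF4E, PPAT, TFAM and CCT2 did not pass, with log2 fold changes of 0.06, -0.41, 0.32 and -0.21. SHMT2, EIF4E, PPAT, TFAM and CCT2 were named after their values were seen. The median change by library was -0.98, -1.31 and -1.33 in depleted libraries 1, 2 and 3. After the GC correction 43 were lower and 1 higher, with a median of -0.998. The 1 higher gene was SHMT2, so EIF4E, PPAT, TFAM and CCT2 passed there as lower. The direction of EIF4E and TFAM thus depended on that step. Without depleted library 1 there were 39 lower and 2 higher (median -1.31).

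Genes that MYC is known to repress did not move one way. Of 17 tested, 7 were higher and 6 lower, and their median change was -0.24. THBS1, a secreted matrix protein that restrains angiogenesis, stood at 0.562, 0.303 and 0.418 CPM with asparagine and at 8.12, 10.8 and 12.04 CPM in depleted libraries. It met the filter on low values through the depleted libraries alone, so its call among the 7 is a description and supports nothing. KLF6, a zinc finger factor, rose 7.87-fold from 39.5 ± 2.06 to 311 ± 24.3, and TXNIP 4.58-fold from 54.05 ± 2.57 to 248 ± 23.6 CPM. NDRG2 fell 4.97-fold from 6.69 ± 0.343 to 1.35 ± 0.357 CPM. The cell cycle inhibitors CDKN1A and CDKN1B rose 2.11-fold and 1.503-fold, and were named after their values were seen. After the GC correction 7 were higher and 8 lower (median -0.05), and without depleted library 1 there were 8 and 9 (median -0.57).

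**Figure D5:**
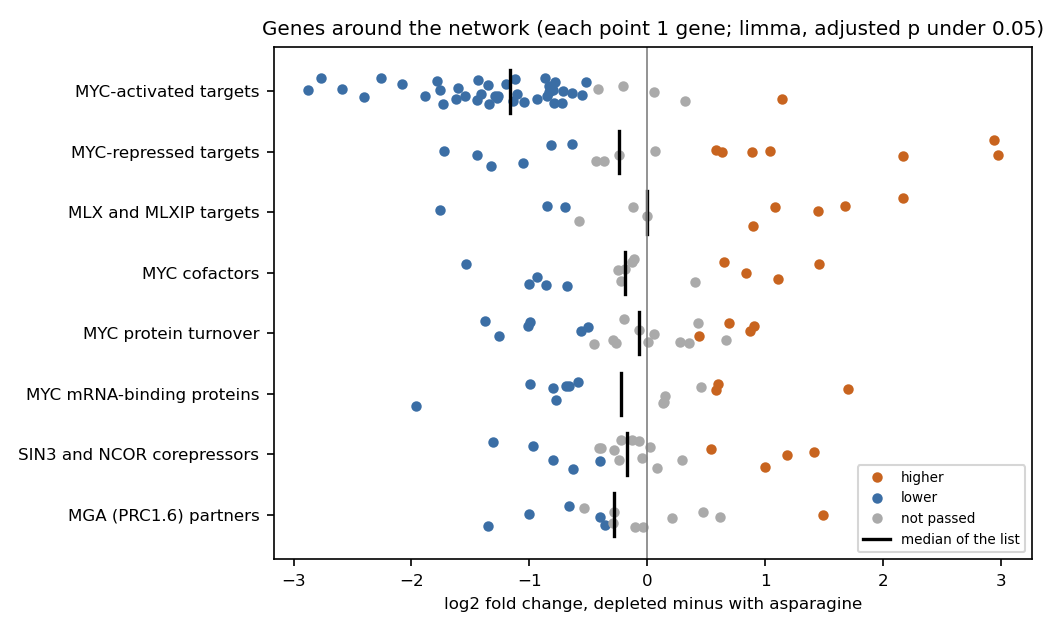
Log2 fold changes of single genes (points) in 8 lists of genes around the network, colored by the limma call, with the median of each list (black bar). Points of the MYC-activated targets lie mostly below 0 (39 of 44 lower), and the other lists hold genes called in both directions.

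Targets of MLX with MLXIP also split. Their list shares LDHA with the genes that MYC activates and TXNIP with those that MYC represses. Of 11 tested, 5 were higher and 3 lower, and their median change was 0.0013. TXNIP, which limits glucose uptake and is the standard readout of MLXIP activity, is given above. Its relatives ARRDC4 and ARRDC3 rose 3.52-fold to 29.3 ± 6.58 CPM and 3.28-fold to 14.8 ± 5.87 CPM. The lactate dehydrogenase gene LDHA fell 3.40-fold from 635 ± 42.1 to 187 ± 14.4 CPM. Without depleted library 1, 5 were higher and 5 lower (median 0.12), and after the GC correction 6 and 4 (median 0.34).

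Cofactors that MYC uses were tested in 15 genes, of which 4 were higher and 5 lower, beside 25.1% and 26.2% of all genes (median -0.18). The acetyltransferase genes KAT2A and KAT2B changed in opposite directions. KAT2A, known as GCN5, fell 2.87-fold from 267 ± 16.7 to 92.9 ± 23.1 CPM, while its paralog KAT2B, known as PCAF, rose 2.92-fold from 18.7 ± 1.64 to 54.7 ± 15.6 CPM. EP300, another acetyltransferase, rose 2.17-fold from 186 ± 10.6 to 403 ± 19.6. WDR5, which anchors MYC on chromatin, fell 2.02-fold from 160.4 ± 10.4 to 79.6 ± 8.27. Without depleted library 1, 5 were higher and 10 lower (median -0.33), and after the GC correction 7 and 5 (median 0.15).

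Genes that act on MYC protein stability were higher in 4 of 21 and lower in 6, near the 25.1% and 26.2% of all genes, with a median of -0.07. SKP2, a ubiquitin ligase subunit, fell 2.40-fold from 98.9 ± 2.36 to 41.3 ± 7.15 CPM. The ligase gene STUB1 fell 2.37-fold and the phosphatase scaffold PPP2R1A 1.99-fold. STUB1 stood at 78.5 CPM in depleted library 1 and at 30.0 and 30.7 in the other two, so its spread was wide. Without depleted library 1, 8 were higher and 10 lower (median -0.14), and after the GC correction 4 and 8 (median -0.03). Genes for proteins known to bind MYC mRNA or AU-rich messages were higher in 3 of 14 and lower in 7 (median -0.23). ZFP36L1, which promotes decay of AU-rich messages, rose 3.26-fold from 269.6 ± 24.4 to 880 ± 33.4 CPM. YBX1, a cold shock domain protein, fell 3.66-fold, KHSRP 1.97-fold and ZFP36L2 1.74-fold. Without depleted library 1, 5 genes of this list were higher and 7 lower (median -0.31), and after the GC correction 2 and 8 (median -0.43).

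Genes for corepressors of the MXD proteins and MNT, the SIN3 and NCOR complexes, were higher in 4 of 20 and lower in 5 (median -0.17). These shares are near the 25.1% and 26.2% of all genes. ARID4A and ARID4B rose 2.92-fold and 2.40-fold and the demethylase KDM5A 2.05-fold. RBBP7, a histone chaperone, fell 2.49-fold from 239 ± 6.86 to 96.0 ± 7.25 CPM. The increases of ARID4A and ARID4B were uneven, at 35.1 and 66.3 CPM in depleted library 1 against 94.1 and 155 in depleted library 2. Without depleted library 1, 5 were higher and 11 lower (median -0.27), and after the GC correction 6 were higher and 9 lower (median -0.17). Genes for the partners of MGA in the PRC1.6 complex were higher in 1 of 14 and lower in 5 (median -0.28). There were 4 higher and 8 lower without depleted library 1 (median -0.30), and 2 and 9 after the GC correction (median -0.42). RYBP rose 2.99-fold from 31.7 ± 1.32 to 94.8 ± 30.4 CPM, TFDP1, the partner of E2F6, fell 2.57-fold and L3MBTL2 fell 1.57-fold. WDR5 is also counted among the cofactors, and HDAC1 and HDAC2 among the corepressors. The relatives MYCN, MYCL and MLXIPL were not analysed here.

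The genes whose profile over the 6 libraries was most like that of MYC were MAGED1, PTBP1, SNX22, MANEAL and MDH2. Likeness was the root mean square difference of log2(CPM + 1) values centred on each gene's mean, over 10534 genes with a mean of at least 5 CPM. It was 0.0275 for MAGED1, 0.0307 for PTBP1, 0.0373 for SNX22, 0.0373 for MANEAL and 0.0375 for MDH2. MAGED1 stood at 50.3, 52.5 and 44.5 CPM with asparagine and at 26.2, 19.9 and 19.8 CPM in depleted libraries 1, 2 and 3, which is the pattern of MYC with depleted library 1 highest among the depleted.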

How the data were processed

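RNA was sequenced from RS4;11 cells in 3 libraries with asparagine and 3 depleted libraries. The submitters' processing notes name GRCh38, STAR, featureCounts (Subread) and FastQC. Their versions, the annotation, strand setting, scaling and gene filter were not given in the sources used here. The deposited values are normalized CPM, a scaled signal per gene set by the authors, whose column sums of 918783 to 1031234 show that the divisor was not the total alone. Each value was a whole multiple of 1 step per library (100% of values within 0.001 of a read), which was taken as 1 read. The deposited table holds no read counts, so read numbers are inferred from this step, and no test uses them.

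Values were analysed as log2(CPM + 1) with limma 3.58.1 in R 4.3.3 over the 11892 of 11911 genes that reached 1 CPM in 3 or more libraries. The group was the only term, with an intensity trend, two-sided tests and Benjamini-Hochberg adjustment at 0.05. Columns were matched to samples by arm and replicate number. The name of the depleted columns may abbreviate asparaginase. A ratio of group mean CPM is written with "-fold". Transcript GC content and length are medians over protein-coding transcripts of GENCODE 29 (11371 genes, 95.5%). The GC correction removed a lowess trend (span 0.3) from each library.

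Members and lists were chosen with earlier results of these data known. Named genes are the members, up to 4 called genes per list (largest log2 fold change, higher group mean of 5 CPM or more), and the 5 genes most like MYC. A gene that this rule names in the list on MYC protein stability is not reported here. The fit was tested on simulated data whose spread in both groups was that of the libraries with asparagine. The wider spread of the depleted libraries was not simulated, so that test does not cover it. The labels do not say whether replicate numbers pair the samples, and the main fit did not pair them. Alternative scalings, filters, thresholds and left-out libraries are given in the closing section. RefSeq promoters of GRCh38.p14 were matched by symbol.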

Additional observations from a re-analysis of the deposited data

How the results depend on the processing

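Alternatives were pseudocounts of 0.25 and 4 CPM, no filter or 5 CPM, other scalings, other moderation, a replicate block, leaving out libraries, a threshold of 0.01, GC corrections and, added after seeing the data, the genes with a GC value alone and the GC correction without depleted library 1. A planned count model on the recovered reads was not run, since the table was treated as scaled values. Over all genes the median change lay between -0.016 and 0.015 in these settings, and no scaling turned the direction of a member. Calls did change with quantile normalization, where MAX passed (limma adjusted p = 0.0388) and MLXIP did not (0.0642). It gave 3 members higher and 2 lower, beside 2808 genes higher and 2959 lower. Same-numbered samples had correlations of deviations of 0.08, -0.65 and 0.69. With 3 libraries per group and depleted library 1 apart, these values do not settle whether the numbers pair samples. With the replicate block 2824 genes were higher and 2989 lower, 2 members higher and 4 lower, with MXD4 added (adjusted p = 0.0427), and 3 PRC1.6 partners lower, as with quantile normalization (3).

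Leaving out 1 library gave 1728 to 4812 genes higher and 1814 to 4913 lower, 1 to 4 members higher and 2 to 5 lower, 3 to 5 cofactors higher and 3 to 10 lower, 1 to 8 turnover genes higher and 2 to 10 lower, 1 to 5 mRNA-binding proteins higher and 7 to 7 lower, 1 to 5 corepressors higher and 3 to 11 lower, 1 to 4 PRC1.6 partners higher and 2 to 8 lower, 5 to 5 MLX targets higher and 2 to 5 lower, 1 to 2 activated targets higher and 36 to 39 lower, and 6 to 8 repressed targets higher and 5 to 9 lower. All counts are of genes by their RNA, also where a list is named by its proteins. The highest counts of all genes and of members came without depleted library 1. MLX was at -0.014 without it, and up to 0.15 without depleted library 2.

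At 0.01, 1612 genes were higher and 1703 lower, with 1 member, 1 turnover gene, 1 mRNA-binding protein and 1 corepressor higher, and 3 turnover genes, 3 corepressors and 2 PRC1.6 partners lower. With the GC correction, 3988 of 11352 genes, 4 members, 7 cofactors and 2 PRC1.6 partners were higher. There 3899 genes, 2 members, 9 corepressors and 9 PRC1.6 partners were lower. With the block added, 3705 genes, 4 members, 7 cofactors and 2 PRC1.6 partners were higher. Lower were 3614 genes, 2 members, 8 corepressors and 8 PRC1.6 partners. With the GC slope as a covariate, 3959 of 11892 genes, 5 members, 7 cofactors and 2 PRC1.6 partners were higher. In that fit 3955 genes, 3 members and 10 turnover genes were lower. With the GC correction without depleted library 1, 4488 genes, 4 members, 7 cofactors, 7 corepressors and 2 PRC1.6 partners were higher. There 4392 genes, 3 members, 10 corepressors, 9 PRC1.6 partners and 10 repressed targets were lower. MXD3 was at 0.35 with the GC correction, with or without the block, and at 0.32 with the covariate. It was at 0.33 with the GC correction and depleted library 1 left out, against -0.80 with that library left out alone. The cause was not tested.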
